A study of Mus musculus with 14 samples.

Results

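The neuroblast microtubule and cytoskeleton genes Dcx, Tubb3, Tubb2b, Stmn1, Stmn2, Map1b, Dpysl3, Dpysl5 and Crmp1 were followed across 5 populations of sorted mouse brain cells. They were read from every probe set whose platform annotation gives 1 gene symbol, where that symbol is one of the 9. This gave 9 of 18193 genes, and 19 of 45037 probe sets. A further probe set, 1449682_s_at, is annotated to both Tubb2b and Tubb2a-ps2 and was left out, with an intensity of 6 to 10 on every array.

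All cells came from 8-week-old hGFAP-eGFP mice, which carry enhanced green fluorescent protein (GFP) under the promoter of the human GFAP gene, so that every group, DIEC_GFP included, shares the transgene. In these mice GFP marks astrocytes and astrocyte-like stem cells, and it can persist in their recent progeny. From the subependymal zone came the double-positive sort for GFP and prominin (SEZ_GFPprom, n = 4), the sort for GFP (SEZ_GFP, n = 2), the sort for prominin (SEZ_Prom, n = 2) and the sort for CD24 (SEZ_CD24, n = 2). The GFP sort of the diencephalon (DIEC_GFP, n = 4) completed the set of 14 Affymetrix MOE430 2.0 arrays. The labels name SEZ_GFPprom, SEZ_GFP and SEZ_Prom neural stem cells, SEZ_CD24 ependymal cells and DIEC_GFP astrocytes. They call the arrays of a sort biological replicates without naming animals or pools, so that a p-value reflects array-to-array spread, which may be technical in part. The number of arrays limits the precision.

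The subependymal zone lies beside the ependymal lining of the lateral ventricle and keeps making neurons in the adult. Its stem cells give rise to dividing intermediate cells, and these to neuroblasts, which migrate to the olfactory bulb and display CD24 on their surface. A migrating neuroblast extends a leading process filled with dynamic microtubules. Tubulins form the polymer, doublecortin (Dcx) and Map1b bind and stabilise it, stathmins sequester tubulin dimers and promote disassembly, and collapsin response mediator proteins (CRMPs, among them Dpysl3, Dpysl5 and Crmp1) bind tubulin and couple guidance signals to the growth cone. Dcx and Tubb3 are in common use as markers of immature neurons, and Sox4 and Sox11 are known to act on the Tubb3 promoter.

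Promoter sequences are shown for 3 of the genes. Dcx was chosen because it had the largest differences between sorts among the 9. Tubb3 and Dpysl5 were chosen as the members, among those searched, with a SOX core motif near their start. Of the 9 genes, 5 were searched, Dcx, Tubb3, Map1b, Dpysl5 and Crmp1, in 7 RefSeq windows on GRCm38.p6. The other members were not searched. The 250 bases before each start were searched on both strands for ACAATG (the SOX core) and for the E-boxes CAGCTG and CAGATG, all chosen with the sequences in view. Capitals mark ACAATG, which reads CATTGT where it lies on the other strand.
Tubb3, chr8:123411303-123411552, plus strand: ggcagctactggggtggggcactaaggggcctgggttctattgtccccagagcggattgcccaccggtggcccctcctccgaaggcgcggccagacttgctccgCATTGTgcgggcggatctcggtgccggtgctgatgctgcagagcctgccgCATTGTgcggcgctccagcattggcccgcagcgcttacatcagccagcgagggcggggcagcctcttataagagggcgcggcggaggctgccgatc
Dpysl5, chr5:30711314-30711563, plus strand: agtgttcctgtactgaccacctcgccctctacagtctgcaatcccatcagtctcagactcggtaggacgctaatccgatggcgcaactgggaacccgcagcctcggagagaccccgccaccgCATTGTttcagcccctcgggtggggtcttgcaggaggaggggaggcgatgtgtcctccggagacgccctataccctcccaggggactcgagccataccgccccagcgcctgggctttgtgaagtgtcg
Dcx, chrX:143933220-143933469, minus strand: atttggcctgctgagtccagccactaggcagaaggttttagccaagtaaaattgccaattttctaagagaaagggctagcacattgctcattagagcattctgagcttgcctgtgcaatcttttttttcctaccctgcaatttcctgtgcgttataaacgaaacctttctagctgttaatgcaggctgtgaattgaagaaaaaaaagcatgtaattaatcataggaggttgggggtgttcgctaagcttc
The Tubb3 window held 2 matches to ACAATG, starting at -146 and -96 from the start of the gene, and the Dpysl5 window held 1, at -128. Of 32851 windows of this length, 10.7% held ACAATG. None of the 5 genes held CAGCTG, which 13% of windows hold, and 1 held CAGATG, which 14.4% hold: Map1b, at -213. No match overlapped a match to another motif. These are matches of letters and describe the windows alone.

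The values are the authors' RMA intensities on a linear scale, and tests were run on their log2. Each gene was read by its brightest probe set, the one with the highest mean over all arrays, unless another is named. Arrays of a sort correlated at r = 0.935 to 0.969 over all probe sets, and arrays of different sorts at 0.857 to 0.952. Between 25.4% and 25.7% of probe sets per array had intensities of 10 or less, where whole numbers leave few steps.

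Marker genes did not follow the labels of several sorts. Over 15 markers of ependymal cells, the summed intensity was 20774 to 36995 in SEZ_GFPprom, 1486 to 2499 in SEZ_GFP, 1143 to 1846 in SEZ_Prom, 685 to 1256 in the sort labelled ependymal, SEZ_CD24, and 8334 to 12531 in DIEC_GFP. Foxj1, the master regulator of motile cilia, stood at 66 and 48 in SEZ_CD24, against 173, 144, 288 and 226 in DIEC_GFP, and all 15 markers were lower in SEZ_CD24 than in DIEC_GFP. The ependymal markers were highest in SEZ_GFPprom, labelled neural stem cells, where Foxj1 read 799, 975, 575 and 1086. Prom1, which encodes prominin, read 426, 664, 441 and 514 in SEZ_GFPprom, 243 and 347 in SEZ_GFP, 194 and 345 in SEZ_Prom and 85 and 380 in SEZ_CD24, against 271, 224, 263 and 290 in DIEC_GFP, so the sort for prominin alone overlapped the sorts made without it. SEZ_Prom also had the largest sum of mature neuron markers, and its oligodendrocyte sum lay within the range of DIEC_GFP. Over 20 markers of neuroblasts that are none of the 9 genes, such as Sox11, Dlx2 and Cd24a, the sums were 16475 to 22166 in SEZ_GFPprom, 34702 to 40131 in SEZ_GFP, 12807 to 15654 in SEZ_Prom, 36879 to 57591 in SEZ_CD24 and 7367 to 7922 in DIEC_GFP. Not all followed the sum: Celf4 was highest in SEZ_Prom (2284 and 2833), against 1039 and 943 in SEZ_GFP. Robo2 stayed at or under 10 in SEZ_GFPprom, SEZ_Prom and DIEC_GFP. Cd24a encodes the surface protein by which SEZ_CD24 was sorted, so its readings of 2160 and 3740 in SEZ_CD24 are not independent of the sort. Ccnd2, a cyclin, gave 5736 of 17942 in SEZ_GFPprom replicate 2 and 10108 of 40131 in SEZ_GFP replicate 2. The part of cycling cells in the sum was not tested. In RNA of whole sorts, fewer neuroblasts and less of a transcript per neuroblast cannot be told apart.

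The 9 genes followed one order of sorts for the most part. Mean log2 intensity was highest in SEZ_CD24 for 7 genes and in SEZ_GFP for the other 2, Tubb2b and Stmn1, and these were also the first and second sorts for every gene. DIEC_GFP was lowest for 6 genes, SEZ_GFPprom for Stmn1 and Map1b, and SEZ_Prom for Tubb2b. In the dimmer probe sets Stmn1 1448113_at and Map1b 1421851_at, DIEC_GFP was lowest instead. In a moderated F test over the 5 sorts (limma, Benjamini-Hochberg adjustment over all probe sets), 8 of the 9 genes passed, where 22.6% of all genes did. The exception was Stmn1 (adjusted p = 0.0708), whose other probe set, 1448113_at, passed (0.019). Tubb2b passed narrowly (0.0319), and leaving out any of 7 single arrays, both SEZ_GFP arrays and all 4 of DIEC_GFP among them, took it past the threshold (0.0503 to 0.0997). Among sorts next to each other in a gene's order, the test of the difference passed only between SEZ_Prom and DIEC_GFP for Dcx.

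**Figure D1:**
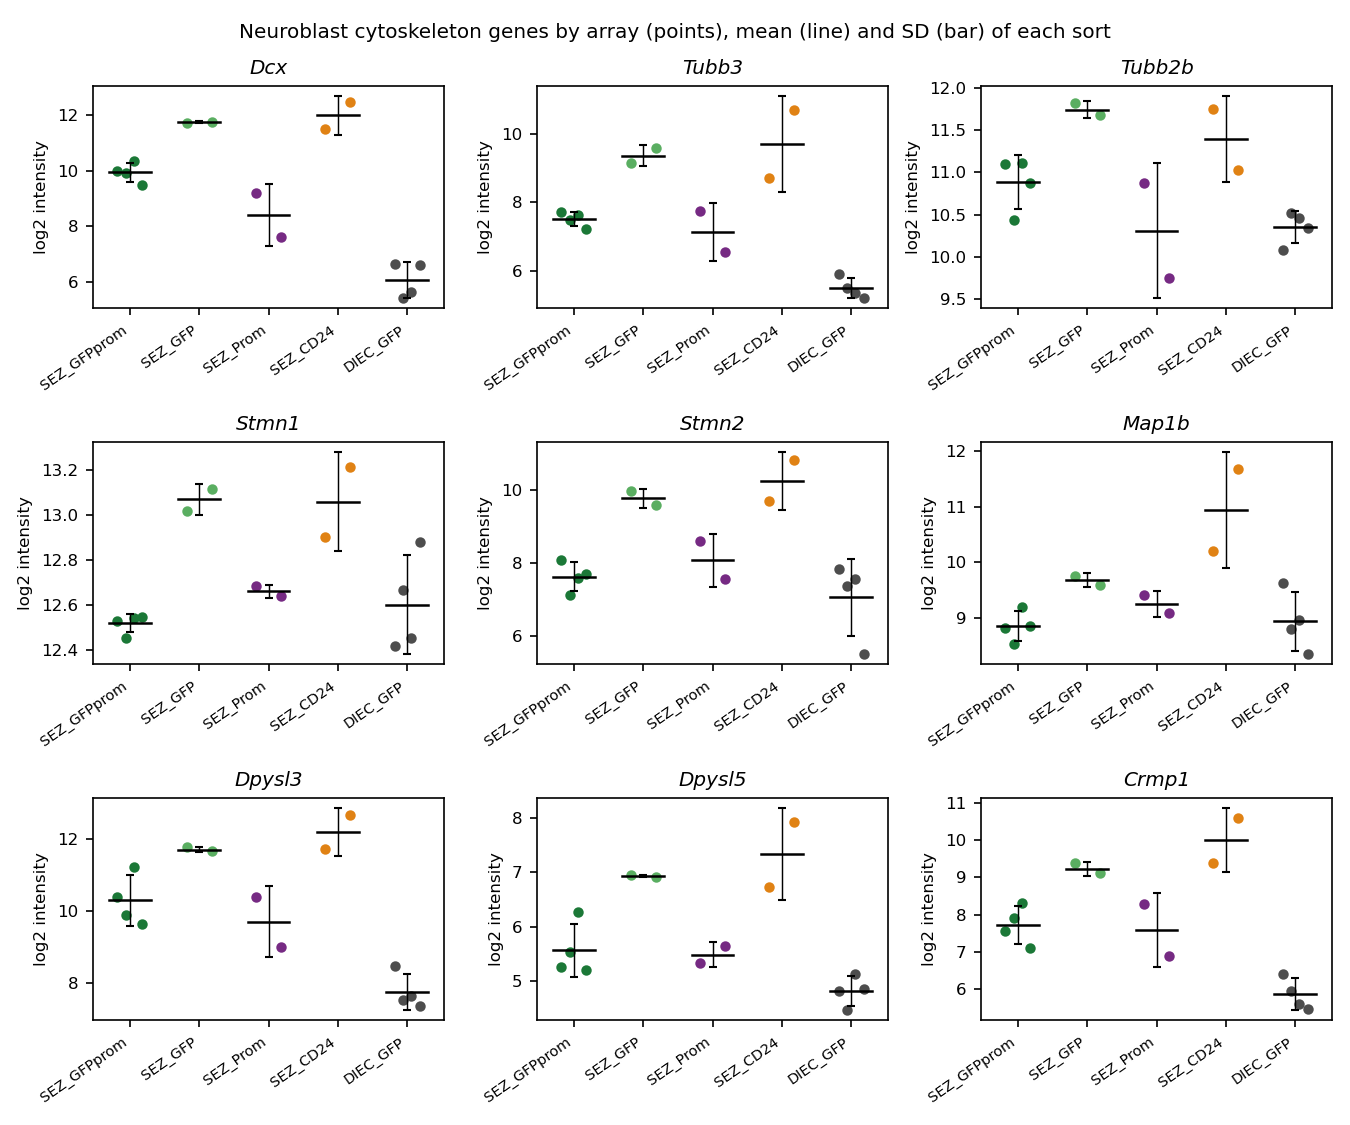
Log2 intensity (y axis) of the 9 genes in the 5 sorts (x axis), with a point for each array, a line at the mean and a bar of 1 SD. SEZ_GFP and SEZ_CD24 hold the highest 2 means in each panel, and DIEC_GFP the lowest in 6 of the 9.

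Dcx, which binds between protofilaments and marks migrating neuroblasts, varied most. Its intensities were 1023, 970, 1307 and 723 in SEZ_GFPprom, 3340 and 3463 in SEZ_GFP, 591 and 197 in SEZ_Prom, and 2872 and 5645 in SEZ_CD24, against 102, 43, 50 and 98 in DIEC_GFP. Every array of the subependymal zone lay above every array of DIEC_GFP, and SEZ_Prom lay below SEZ_GFPprom, without overlap. The log2 means were 9.94 ± 0.35 in SEZ_GFPprom, 11.73 ± 0.04 in SEZ_GFP, 8.41 ± 1.12 in SEZ_Prom, 11.98 ± 0.69 in SEZ_CD24 and 6.09 ± 0.65 in DIEC_GFP (SD). Dcx was higher than in DIEC_GFP by 3.85 log2 units in SEZ_GFPprom (14.5-fold, SE 0.40, adjusted p = 0.000251). The difference was 5.64 in SEZ_GFP (49.9-fold, adjusted p = 0.000143), 2.33 in SEZ_Prom (5.01-fold, 0.0241) and 5.89 in SEZ_CD24 (59.1-fold, 0.0000786). Within the subependymal zone Dcx was higher in SEZ_GFP than in SEZ_Prom (9.97-fold, adjusted p = 0.0115), lower in SEZ_Prom than in SEZ_CD24 (11.8-fold, 0.0109) and lower in SEZ_GFPprom than in SEZ_CD24 (4.09-fold, 0.0249). The excess of Dcx in SEZ_Prom over DIEC_GFP missed the threshold without SEZ_Prom replicate 1 (1.53, adjusted p = 0.276) or without DIEC_GFP replicate 2 (0.0544) or 3 (0.0508). The Dcx difference between SEZ_GFPprom and SEZ_CD24 missed it without SEZ_CD24 replicate 2 (0.229), and narrowly without SEZ_GFPprom replicate 2 (0.0519) or 4 (0.0534).

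Map1b, a large microtubule-associated protein of growing axons, followed a flatter course. It had intensities of 452, 371, 587 and 466 in SEZ_GFPprom, 867 and 774 in SEZ_GFP, 684 and 544 in SEZ_Prom, and 1185 and 3274 in SEZ_CD24, against 795, 446, 501 and 326 in DIEC_GFP. SEZ_CD24 lay above every other array, and the other 4 sorts shared one range, although SEZ_GFP lay above SEZ_GFPprom and SEZ_Prom. Map1b was higher in SEZ_CD24 than in DIEC_GFP by 2.01 (4.02-fold, adjusted p = 0.00798) and lower in SEZ_GFPprom than in SEZ_CD24 (log2 difference -2.09, 0.00901). Both rest on the brighter SEZ_CD24 array: without SEZ_CD24 replicate 2 the excess over DIEC_GFP was 1.27 (adjusted p = 0.106). The difference between SEZ_GFPprom and DIEC_GFP was -0.08, with a 95% interval of -0.80 to 0.63.

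Among the tubulins, Tubb3, the neuron-specific beta-tubulin, had intensities of 210, 180, 199 and 150 in SEZ_GFPprom, 568 and 767 in SEZ_GFP, 214 and 93 in SEZ_Prom, and 423 and 1669 in SEZ_CD24, against 60, 45, 41 and 37 in DIEC_GFP. Every subependymal array lay above every diencephalic one. Tubb3 was higher than in DIEC_GFP by 2.03 log2 units in SEZ_GFPprom (4.07-fold, adjusted p = 0.00701), by 3.87 in SEZ_GFP (14.7-fold, 0.00072) and by 4.22 in SEZ_CD24 (18.7-fold, 0.000331). In SEZ_Prom the difference was 1.65, with an interval of 0.61 to 2.69 and an adjusted p of 0.0932. Tubb3 was lower in SEZ_GFPprom (4.58-fold, 0.0159) and in SEZ_Prom (5.96-fold, 0.0319) than in SEZ_CD24. The step between SEZ_GFP and SEZ_Prom (4.68-fold, adjusted p = 0.0472) did not pass after removal of any single array other than the SEZ_CD24 ones.

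Tubb2b, a beta-tubulin isotype of developing neurons, read 859 or more on every array, with 2190, 1383, 2207 and 1873 in SEZ_GFPprom, 3600 and 3265 in SEZ_GFP, 1880 and 859 in SEZ_Prom, and 3437 and 2094 in SEZ_CD24, against 1079, 1462, 1406 and 1300 in DIEC_GFP. SEZ_GFP lay above SEZ_GFPprom, SEZ_Prom and DIEC_GFP without overlap, while SEZ_Prom spanned the whole diencephalic range. Tubb2b passed only in SEZ_GFP against DIEC_GFP (1.40 log2 units, 2.63-fold, adjusted p = 0.0204), and not without SEZ_GFP replicate 1 (0.144) or 2 (0.127). SEZ_CD24 exceeded DIEC_GFP by 1.04 (interval 0.35 to 1.74, adjusted p = 0.0595), and SEZ_Prom differed from it by -0.04 (interval -0.73 to 0.66).

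Stmn1, the stathmin of dividing and immature cells, differed least between sorts when read by its brightest probe set. Its intensities were 5910, 5604, 5954 and 5974 in SEZ_GFPprom, 8299 and 8881 in SEZ_GFP, 6586 and 6384 in SEZ_Prom, and 7654 and 9496 in SEZ_CD24, against 5465, 6493, 5605 and 7549 in DIEC_GFP. SEZ_GFP and SEZ_CD24 lay above all other arrays, by a narrow margin over DIEC_GFP replicate 4. Its group means spanned 0.55 log2 units, against 1.43 for Tubb2b and 5.89 for Dcx, and Stmn1 passed in none of the 10 comparisons, in 4 of which its unadjusted p was under 0.05. The name of its brightest probe set, 1415849_s_at, marks sequence shared between transcripts. The other Stmn1 probe set, 1448113_at, had group means spanning 1.52 log2 units and passed the F test (adjusted p = 0.019). By the brightest probe set the following differences were found. The largest excess over DIEC_GFP was 0.46 in SEZ_GFP (interval 0.11 to 0.82, adjusted p = 0.116). That difference passed without DIEC_GFP replicate 4 (0.56, adjusted p = 0.0448).

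Stmn2, a membrane-bound stathmin of growing axons, had intensities of 273, 140, 191 and 207 in SEZ_GFPprom, 998 and 766 in SEZ_GFP, 386 and 188 in SEZ_Prom, and 830 and 1798 in SEZ_CD24, against 226, 166, 190 and 45 in DIEC_GFP. SEZ_GFP and SEZ_CD24 lay above the other 3 sorts, which overlapped one another. Stmn2 was higher than in DIEC_GFP by 2.71 in SEZ_GFP (6.53-fold, adjusted p = 0.017) and by 3.19 in SEZ_CD24 (9.13-fold, 0.00542), and lower in SEZ_GFPprom than in SEZ_CD24 (6.20-fold, 0.0193). The excess of Stmn2 in SEZ_GFP did not pass without SEZ_GFP replicate 1 (adjusted p = 0.136) or 2 (0.106), nor that in SEZ_CD24 without SEZ_CD24 replicate 2 (0.0777). DIEC_GFP replicate 4, the low array, also had the lowest sum over 15 markers of mature neurons, at 574, against 5193, 3474 and 4201 in the other DIEC_GFP arrays. The part of neuronal RNA in the level of Stmn2 was not tested.

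The 3 CRMP genes ran in parallel. Dpysl3 (CRMP4) had intensities of 1333, 954, 2392 and 799 in SEZ_GFPprom, 3463 and 3216 in SEZ_GFP, 1347 and 514 in SEZ_Prom, and 3355 and 6439 in SEZ_CD24, against 357, 183, 198 and 163 in DIEC_GFP. Crmp1 had 188, 238, 318 and 138 in SEZ_GFPprom, 666 and 552 in SEZ_GFP, 314 and 118 in SEZ_Prom, and 676 and 1568 in SEZ_CD24, against 85, 61, 48 and 44 in DIEC_GFP. Dpysl5 (CRMP5) had 38, 46, 77 and 37 in SEZ_GFPprom, 123 and 121 in SEZ_GFP, 40 and 50 in SEZ_Prom, and 106 and 244 in SEZ_CD24, against 28, 22, 35 and 29 in DIEC_GFP. For all 3 genes every subependymal array lay above every diencephalic one, narrowly for Dpysl5, and SEZ_GFP and SEZ_CD24 lay above the other sorts.

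Dpysl3 was higher than in DIEC_GFP by 2.54 log2 units in SEZ_GFPprom (5.83-fold, adjusted p = 0.00309), 3.96 in SEZ_GFP (15.6-fold, 0.000938) and 4.44 in SEZ_CD24 (21.7-fold, 0.000356). Crmp1 was higher by 1.87 in SEZ_GFPprom (3.66-fold, 0.00977), 3.40 in SEZ_GFP (10.5-fold, 0.00144) and 4.16 in SEZ_CD24 (17.9-fold, 0.000333). Dpysl5 was higher in SEZ_GFP (2.12, 4.34-fold, 0.0044) and SEZ_CD24 (2.52, 5.72-fold, 0.00121), and its difference in SEZ_GFPprom was 0.75 (adjusted p = 0.125). In SEZ_Prom against DIEC_GFP none of the 3 passed: the differences were 1.96 for Dpysl3 (0.0616), 1.74 for Crmp1 (0.0718) and 0.67 for Dpysl5 (0.405). For Dpysl3 its second probe set, 1415877_at, gave 1.71 in that comparison (0.0335), and the third, 1438789_s_at, gave 2.06 (0.028).

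Counted by comparison, the genes above DIEC_GFP were 4 of 9 in SEZ_GFPprom, namely Dcx, Dpysl3, Tubb3 and Crmp1, where 8.83% of all genes were higher. The median difference of the 9 was 0.75, against 0.08 over all genes. In SEZ_GFP 7 of 9 were higher, the exceptions being Stmn1 and Map1b (adjusted p = 0.347), where 4.94% of all genes were, with a median of 2.71 against 0. In SEZ_Prom the count was 1 of 9, Dcx, where 2.82% of all genes were higher, with a median of 1.01 against 0.02. In SEZ_CD24 it was 7 of 9, the exceptions being Tubb2b and Stmn1 (adjusted p = 0.107), where 6.03% of all genes were, with a median of 3.19 against -0.01. No member passed as lower in limma's test in any of these 4 comparisons, in which 6.77% of all genes were lower in SEZ_GFPprom, 6.10% in SEZ_GFP, 2.33% in SEZ_Prom and 8.76% in SEZ_CD24. An unadjusted p under 0.05 was reached by 5 genes in SEZ_GFPprom, 8 in SEZ_GFP, 4 in SEZ_Prom and all 9 in SEZ_CD24, each of them higher. No share of all genes at that unadjusted level is given, here or for the unadjusted counts below. Those counts thus have no background beside them. The 4 comparisons share the DIEC_GFP arrays, so their counts are not independent of each other.

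Some of these counts changed when a single array was left out. In a sort of 2 this leaves 1 array, so a lost call need not mean that the array left out differed. The SEZ_GFP arrays read alike: the median deviation from their mean over the 9 genes was 0.05 in replicate 1 and -0.05 in replicate 2. Without SEZ_GFP replicate 2, 4 of 9 genes were higher in SEZ_GFP. Without SEZ_Prom replicate 1, or DIEC_GFP replicate 2 or 3, the count in SEZ_Prom was 0, and without SEZ_GFPprom replicate 3, either SEZ_CD24 array or DIEC_GFP replicate 1 it was 2. In SEZ_GFPprom it was 4 whichever array was left out, and in SEZ_CD24 it was 5 to 8.

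Between the subependymal sorts, SEZ_GFPprom was set against SEZ_CD24 with 7 of the 9 genes lower in SEZ_GFPprom, where 4.01% of all genes were lower and 8.0% higher. The exceptions were Tubb2b (adjusted p = 0.362) and Stmn1 (0.0593), and none was higher. The median difference was -2.03, against 0.10 over all genes, and the 7 ranged from -1.77 for Dpysl5 to -2.63 for Stmn2. Dpysl3 was the closest to the threshold (-1.90, 0.0381) and missed it without either SEZ_GFP array (0.0543), among others. All 7 calls were lost without SEZ_CD24 replicate 2, where the count was 0.

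In SEZ_Prom against SEZ_CD24, 5 of 9 genes were lower, where 1.64% of all genes were lower and 2.57% higher: Dcx (-3.56), Tubb3 (-2.57), Dpysl3 (-2.48, adjusted p = 0.0446), Crmp1 (-2.42, 0.0377) and Dpysl5 (-1.85, 0.0377). Map1b (-1.69, 0.0739) and Stmn2 (-2.18, 0.112) did not pass, and the median of the 9 was -2.18, against 0.07 over all genes. Without SEZ_Prom replicate 2 or SEZ_CD24 replicate 2 the count was 0. It was 2 without SEZ_GFPprom replicate 2, either SEZ_GFP array or SEZ_Prom replicate 1, and 3 without SEZ_GFPprom replicate 1.

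SEZ_GFP exceeded SEZ_Prom for all 9 genes in the mean, and 2 passed as higher, Dcx and Tubb3, where 2.09% of all genes were higher and 3.07% lower. The median difference was 1.66, against -0.01 over all genes, and 7 of the 9 had an unadjusted p under 0.05. Tubb2b (1.43, adjusted p = 0.0548) and Dpysl5 (1.45, 0.0781) came next. The count was 0 without either SEZ_GFP array or SEZ_Prom replicate 2, and 1 without SEZ_GFPprom replicate 1, 2 or 4 or any DIEC_GFP array.

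SEZ_GFPprom lay below SEZ_GFP for all 9 genes in the mean, from -0.55 for Stmn1 to -2.15 for Stmn2, with a median of -1.42 against 0.07 over all genes. In limma's test 0 of 9 passed, where 2.22% of all genes were higher and 0.346% lower. An unadjusted p under 0.05 was reached by 8 of 9, a count without a share of all genes beside it. The lowest adjusted p was 0.0901, for Tubb3. The count was 1 without SEZ_GFPprom replicate 3 or DIEC_GFP replicate 4 and 2 without either SEZ_CD24 array, in each case lower in SEZ_GFPprom.

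No gene passed between SEZ_GFPprom and SEZ_Prom in limma's test, where 3.50% of all genes were higher and 1.88% lower, and 1 of 9 had an unadjusted p under 0.05. That gene was Dcx, at 1.53 (interval 0.46 to 2.59, adjusted p = 0.12), and the median of the 9 was 0.13. Nor did any pass between SEZ_GFP and SEZ_CD24, where 0.231% of all genes were higher and 0.286% lower, and again 1 of 9 had an unadjusted p under 0.05. That gene was Map1b, at -1.27 (interval -2.28 to -0.25, adjusted p = 0.333). The median was -0.40, and the interval for Stmn2 was -1.98 to 1.02 on the log2 scale. In both comparisons the count was 0 under every other setting run.

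**Figure D2:**
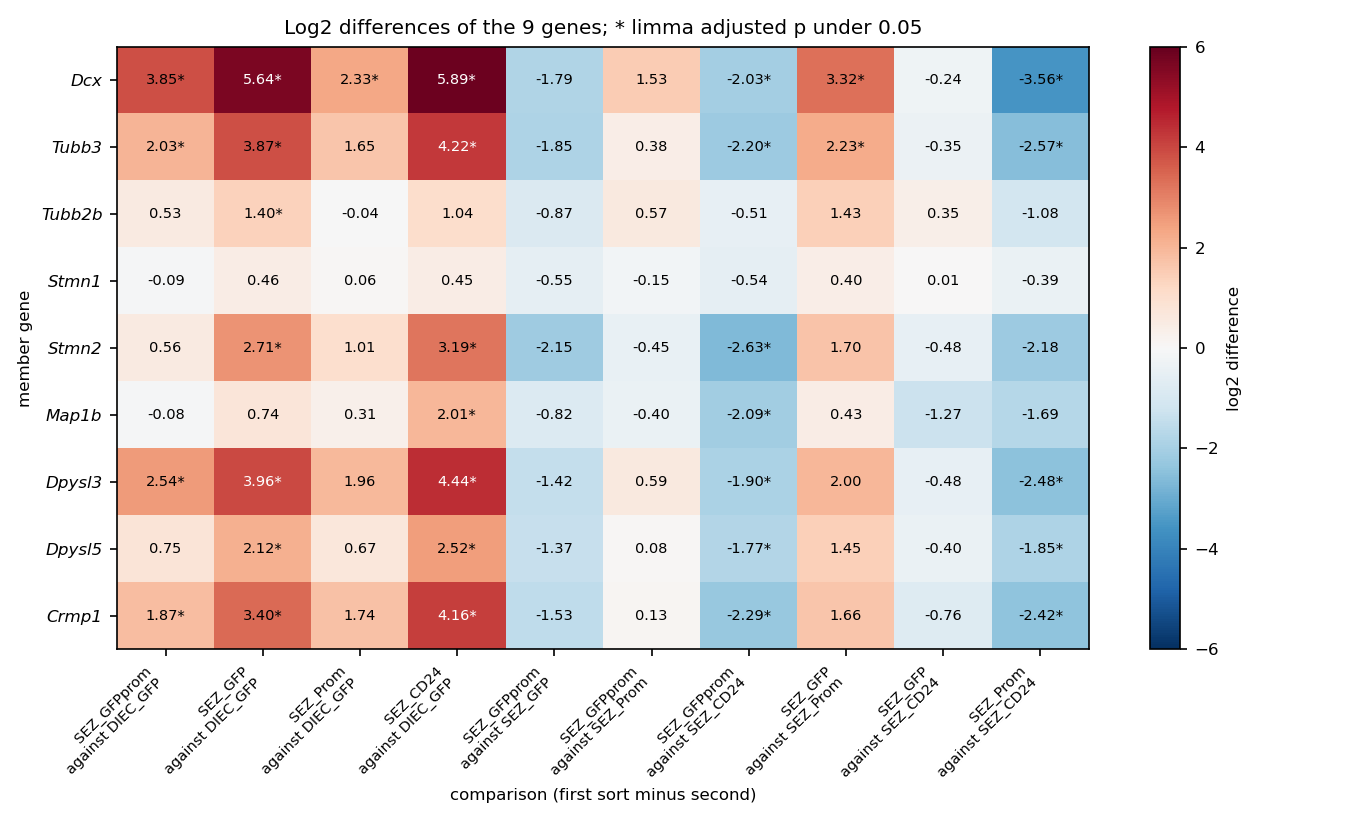
Log2 difference of each of the 9 genes (rows) in the 10 comparisons (columns), each the first sort named minus the second, coloured red above 0 and blue below it, with an asterisk where limma's adjusted p was under 0.05. The SEZ_GFP and SEZ_CD24 columns against DIEC_GFP carry 7 asterisks each, and the Stmn1 row carries none.

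For 6 of the 9 genes more than 1 probe set was on the array, and 0 of the other probe sets passed in the direction opposite to the brightest. In Dpysl3 the others tracked the brightest at r = 0.98 (1415877_at) and 0.91 (1438789_s_at) over 14 arrays. 1415877_at passed in 7 comparisons and 1438789_s_at in 5, where the brightest passed in 5. In SEZ_GFPprom against SEZ_CD24, however, 1438789_s_at gave -0.62 (adjusted p = 0.438), where the brightest gave -1.90 (0.0381). Stmn2 1423281_at was higher in SEZ_GFPprom than in DIEC_GFP (2.44, adjusted p = 0.00869), a comparison in which the brightest probe set gave 0.56 (0.507). It read 95 to 285 in SEZ_GFPprom, against 13 to 68 in DIEC_GFP. Stmn1 1448113_at was higher in SEZ_GFP than in DIEC_GFP (1.52, adjusted p = 0.00504), at 698 to 846 against 191 to 406, where the brightest gave 0.46.

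Map1b 1421851_at was higher in SEZ_GFP than in DIEC_GFP (1.72, adjusted p = 0.0341), unlike the brightest probe set, as well as in SEZ_CD24 (2.19, 0.00796). Of the 3 dimmer Dcx probe sets, 1418141_at reached 337 and was higher in SEZ_GFP (3.49, 0.0139) and SEZ_CD24 (3.47, 0.011) than in DIEC_GFP. The others, 1418140_at and 1448974_at, stood at or under 20 on 10 and 13 of the 14 arrays and passed nowhere. Map1b 1421850_at and Dpysl5 1441246_s_at were at or under 20 on all 14.

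**Figure D3:**
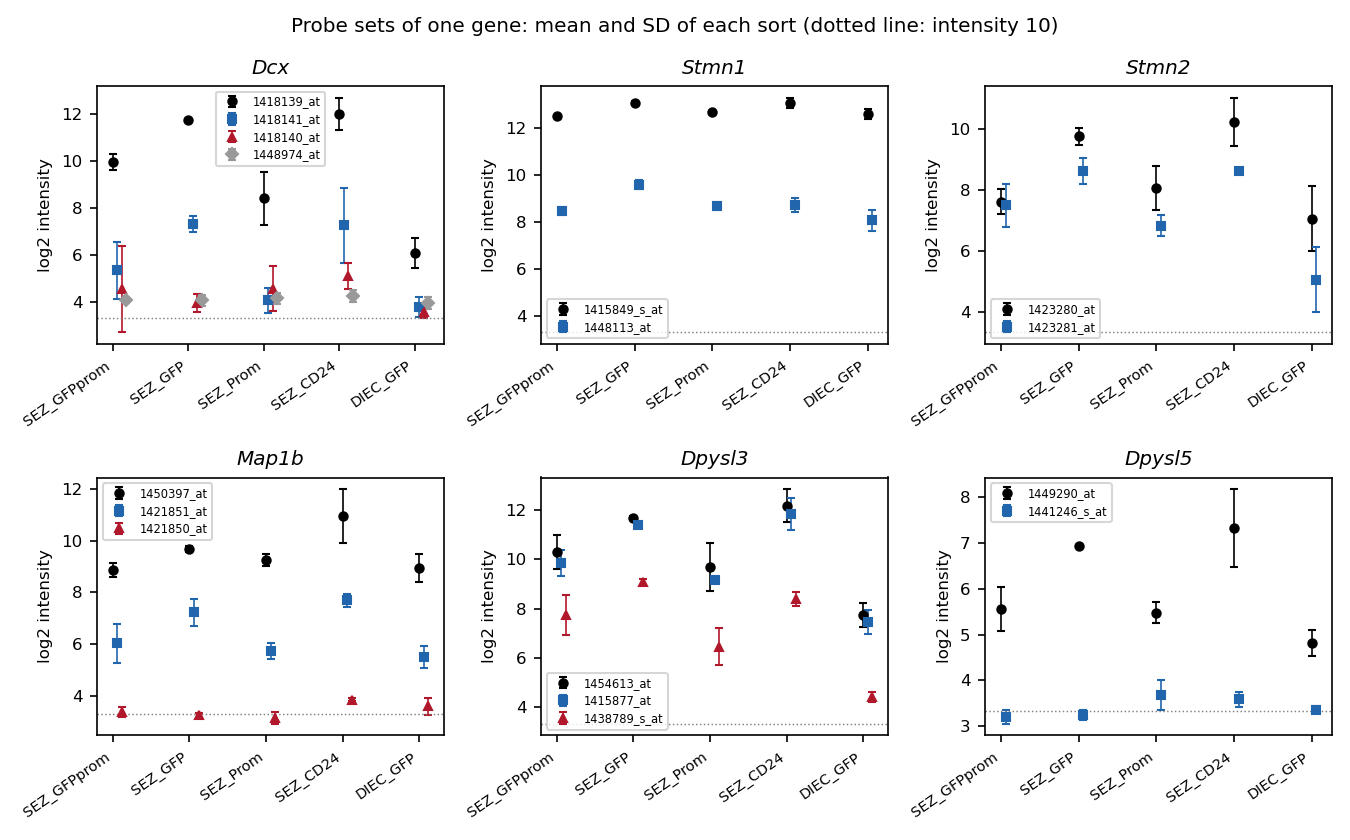
Mean log2 intensity (y axis) with a bar of 1 SD in the 5 sorts (x axis) for each probe set of the 6 genes that have several, with a dotted line at an intensity of 10. The Dpysl3 probe sets run alike, except that 1438789_s_at is highest in SEZ_GFP and the others in SEZ_CD24. The dimmest probe sets of Dcx, Map1b and Dpysl5 lie near the dotted line in every sort.

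Arrays of a sort differed across the 9 genes together. In SEZ_CD24, replicate 2 was the higher array for 8 of 9 genes, with Tubb2b the exception, and in SEZ_Prom replicate 1 was the higher for 8 of 9, with Dpysl5 the exception. In SEZ_GFPprom replicate 3 was highest for 6 genes and replicate 4 lowest for 5. Over the 14 arrays, pairs of the 9 genes correlated at 0.42 to 0.98, with a median r of 0.77. Tubb3 and Crmp1 had the highest median r with the others (0.90 each) and Stmn1 the lowest (0.65). These are descriptions over arrays that share sorts.

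Most of the neuroblast markers varied along with the 9 genes. Of the 20, 11 were higher in SEZ_GFPprom, 16 in SEZ_GFP, 6 in SEZ_Prom and 17 in SEZ_CD24 than in DIEC_GFP, and 1 was lower in SEZ_Prom. In SEZ_GFPprom against SEZ_CD24 10 were lower, and in SEZ_Prom against SEZ_CD24 12 were. Their sum was 36879 in SEZ_CD24 replicate 1 and 57591 in replicate 2, and 15654 in SEZ_Prom replicate 1 and 12807 in replicate 2, the same order of arrays as for most of the 9 genes. Genes of cycling cells summed to 5476 to 9753 in SEZ_GFPprom, 13198 to 14491 in SEZ_GFP, 3220 to 3476 in SEZ_Prom, 6394 to 10143 in SEZ_CD24 and 650 to 1389 in DIEC_GFP. Of their 14 measured members, 13 were higher in SEZ_GFPprom, 14 in SEZ_GFP, 8 in SEZ_Prom and 13 in SEZ_CD24 than in DIEC_GFP. Beside both lists, 8.83% of all genes were higher than in DIEC_GFP in SEZ_GFPprom, 4.94% in SEZ_GFP, 2.82% in SEZ_Prom and 6.03% in SEZ_CD24. Of all genes, 4.01% were lower in SEZ_GFPprom than in SEZ_CD24, and 1.64% were lower in SEZ_Prom than in SEZ_CD24.

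Markers of mature neurons took another course, with sums of 2993 to 6579 in SEZ_GFPprom, 2053 to 2078 in SEZ_GFP, 11841 to 13298 in SEZ_Prom, 2929 to 6060 in SEZ_CD24 and 574 to 5193 in DIEC_GFP. They were thus highest in SEZ_Prom and lowest, apart from 1 DIEC_GFP array, in SEZ_GFP, where the 9 genes stood high. Of 15 measured, 3 were higher in SEZ_GFPprom, 2 in SEZ_Prom and 1 in SEZ_CD24 than in DIEC_GFP, and 1 was lower in SEZ_GFP. Of all genes, 8.83% were higher in SEZ_GFPprom, 2.82% in SEZ_Prom and 6.03% in SEZ_CD24, and 6.1% were lower in SEZ_GFP. Microglial markers summed to 2362 to 4220 in SEZ_GFPprom, 1031 to 1318 in SEZ_GFP, 5973 to 8014 in SEZ_Prom, 26871 and 13400 in SEZ_CD24 replicates 1 and 2, and 3003 to 12642 in DIEC_GFP. The SEZ_CD24 array with the larger microglial sum, replicate 1, had lower values for 8 of the 9 genes. It also had larger sums than replicate 2 for mature neurons (6060 against 2929), astrocytes (16331 against 5530) and oligodendrocytes (12624 against 6577). The same held for oligodendrocyte progenitors (4497 against 1605), ependymal cells (1256 against 685) and endothelial cells (809 against 351). For neuroblasts and cycling cells replicate 2 had the larger sum. Of 11 microglial markers, 6 were lower in SEZ_GFPprom than in SEZ_CD24, where 4.01% of all genes were lower. Oligodendrocyte markers summed to 11390 to 19055 in SEZ_GFPprom, 5183 to 8001 in SEZ_GFP, 42141 to 43490 in SEZ_Prom, 6577 to 12624 in SEZ_CD24 and 37703 to 59594 in DIEC_GFP, so the 2 sorts with the most oligodendrocyte signal were those with the lowest Dcx. Astrocyte markers summed to 21609 to 23432 in SEZ_GFPprom, 19379 to 24007 in SEZ_GFP, 22727 to 26155 in SEZ_Prom and 5530 to 16331 in SEZ_CD24, against 26121 to 48255 in DIEC_GFP. Markers of oligodendrocyte progenitors summed to 4036 to 4839 in SEZ_GFPprom, 4722 to 4813 in SEZ_GFP, 9879 to 11673 in SEZ_Prom and 1605 to 4497 in SEZ_CD24, against 14935 to 20410 in DIEC_GFP, and those of endothelial cells summed to at most 1454 on any array. The part of these other cell types in the differences was not tested.

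**Figure D4:**
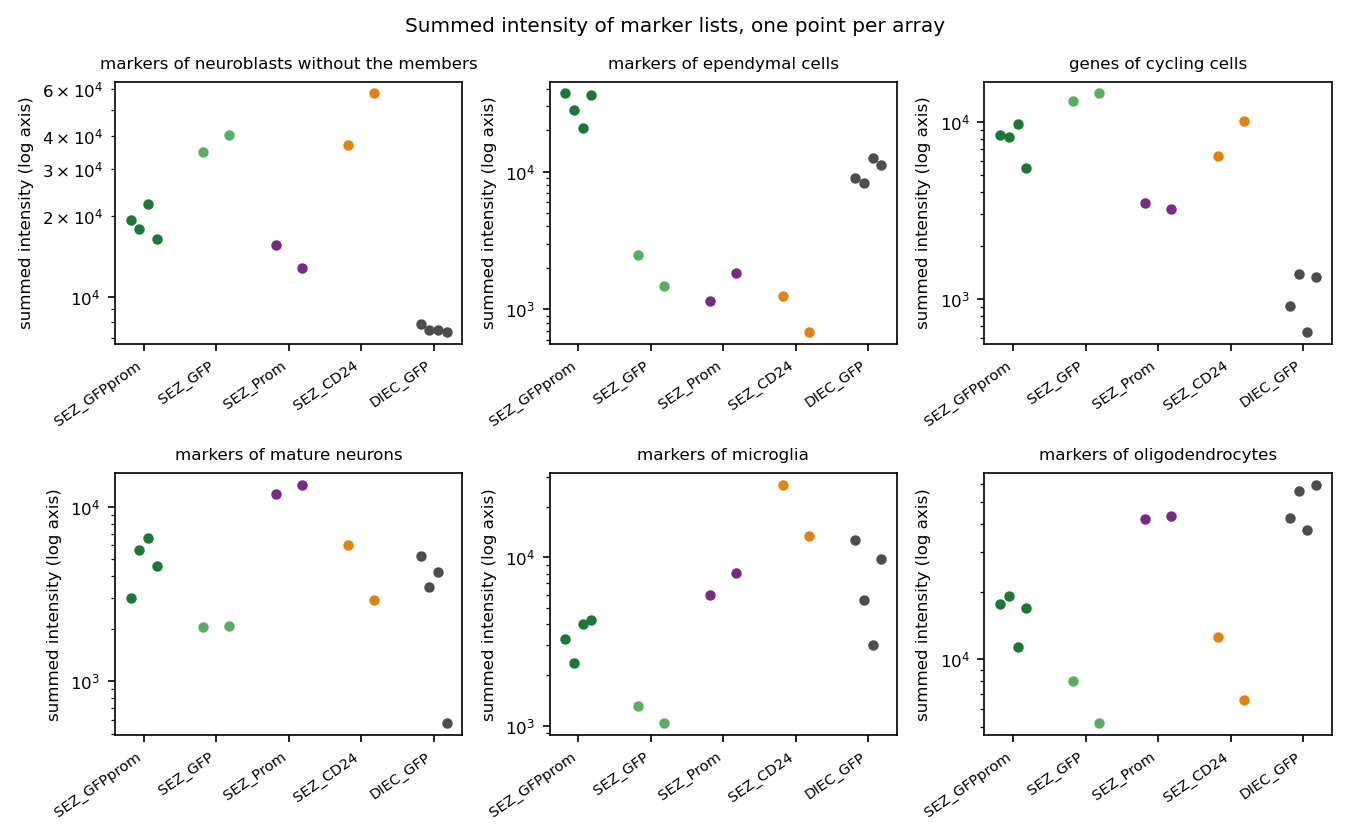
Summed intensity (y axis, log scale) of 6 marker lists in the 5 sorts (x axis), with a point for each array. Neuroblast markers are highest in SEZ_CD24 and SEZ_GFP and lowest in DIEC_GFP, ependymal markers are highest in SEZ_GFPprom, and mature neuron markers are highest in SEZ_Prom.

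Genes of the wider neuronal cytoskeleton were called in both directions. Of 81 genes in 5 lists of tubulins, stathmins and CRMPs, microtubule-associated proteins, motors, and growth cone proteins, 78 were measured. Against DIEC_GFP, 6 were higher and 9 lower in SEZ_GFPprom, 14 and 10 in SEZ_GFP, 4 and 0 in SEZ_Prom, and 19 and 9 in SEZ_CD24, with medians of 0 in SEZ_GFPprom, 0.12 in SEZ_GFP, 0.19 in SEZ_Prom and 0.53 in SEZ_CD24. The share higher was 7.69% in SEZ_GFPprom, against 8.83% of all genes, 17.9% in SEZ_GFP, against 4.94%, 5.13% in SEZ_Prom, against 2.82%, and 24.4% in SEZ_CD24, against 6.03%. The share lower was 11.5% in SEZ_GFPprom, against 6.77% of all genes, 12.8% in SEZ_GFP, against 6.10%, 0% in SEZ_Prom, against 2.33%, and 11.5% in SEZ_CD24, against 8.76%. The count in SEZ_GFPprom was thus near that of genes in general for the higher direction, and no test set these lists against the 9 genes or against all genes. In SEZ_GFPprom against SEZ_CD24, 2 were higher (2.56%, against 8% of all genes) and 16 lower (20.5%, against 4.01%). Between SEZ_GFP and SEZ_CD24 the only one to pass was Kif21b, a kinesin (-1.49, adjusted p = 0.0239).

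Most other tubulins were not called. Of 12 measured, 2 were higher and 0 lower in SEZ_GFPprom than in DIEC_GFP, 2 and 3 in SEZ_GFP, 0 and 0 in SEZ_Prom, and 1 and 3 in SEZ_CD24. The share higher was 16.7% in SEZ_GFPprom, against 8.83% of all genes, and 16.7% in SEZ_GFP, against 4.94%. It was 0% in SEZ_Prom, against 2.82%, and 8.33% in SEZ_CD24, against 6.03%. The share lower was 25% in SEZ_GFP, against 6.1%, and 25% in SEZ_CD24, against 8.76%. It was 0% in SEZ_GFPprom, against 6.77%, and in SEZ_Prom, against 2.33%. Tubb5, a beta-tubulin of proliferating and developing cells, was higher in SEZ_GFPprom (1.22, adjusted p = 0.0211), SEZ_GFP (2.10, 0.00466) and SEZ_CD24 (2.33, 0.00183) than in DIEC_GFP. Tubb4b, a beta-tubulin that is abundant in cilia, was lower in SEZ_GFP (-1.42, 0.0432) and SEZ_CD24 (-1.50, 0.0272) than in DIEC_GFP and higher in SEZ_GFPprom than in SEZ_CD24 (1.70, 0.0188). Tuba4a was lower in SEZ_GFP (-1.59, 0.0241) and SEZ_CD24 (-1.65, 0.0159) than in DIEC_GFP. Tube1, a centriolar tubulin, was higher in SEZ_GFP than in DIEC_GFP (1.33, 0.00609).

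The nearest relatives of the 9 genes did not all follow them against DIEC_GFP. In SEZ_GFPprom against SEZ_CD24, 3 of the 4 were lower (75%, against 4.01% of all genes), as were 7 of the 9 genes. Of the 4 other stathmins and CRMPs, Stmn4 was lower in SEZ_GFPprom (-1.49, adjusted p = 0.00151) and SEZ_GFP (-1.06, 0.0288) than in DIEC_GFP, and lower in SEZ_GFPprom than in SEZ_Prom (-1.52, 0.00854). Dpysl2 (CRMP2) was lower in SEZ_GFPprom than in DIEC_GFP (-1.11, 0.0193) and than in SEZ_CD24 (-1.76, 0.00716). Dpysl4 (CRMP3) was higher in SEZ_GFP (1.36, 0.019) and SEZ_CD24 (1.84, 0.00282) than in DIEC_GFP. The fourth, Stmn3, passed in none of the 10 comparisons.

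Among 22 other microtubule-associated proteins, 0 were higher and 4 lower in SEZ_GFPprom than in DIEC_GFP, 5 and 4 in SEZ_GFP, 0 and 0 in SEZ_Prom, and 6 and 4 in SEZ_CD24. The share higher was 0% in SEZ_GFPprom, against 8.83% of all genes, and 22.7% in SEZ_GFP, against 4.94%. It was 0% in SEZ_Prom, against 2.82%, and 27.3% in SEZ_CD24, against 6.03%. The share lower was 18.2% in SEZ_GFPprom (6.77% of all genes), SEZ_GFP (6.1%) and SEZ_CD24 (8.76%), and 0% in SEZ_Prom (2.33%). Dclk2, a doublecortin-like kinase, was higher in SEZ_GFP (2.70, adjusted p = 0.00138) and SEZ_CD24 (2.85, 0.000755) than in DIEC_GFP and lower in SEZ_GFPprom than in SEZ_GFP (-1.77, 0.0355). Map1a, the relative of Map1b that is prominent in mature neurons, went the other way, with -1.47 in SEZ_GFPprom (0.00111), -1.64 in SEZ_GFP (0.00218) and -1.32 in SEZ_CD24 (0.00505), each against DIEC_GFP. Map7, which recruits kinesin to microtubules, was lower in SEZ_GFP (-2.45, 0.00449) and SEZ_CD24 (-2.90, 0.00128) than in DIEC_GFP. Tppp3 was lower in SEZ_CD24 than in DIEC_GFP (-4.90, 0.000119) and higher in SEZ_GFPprom than in SEZ_CD24 (5.45, 0.0000654), as the ependymal markers were.

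Of 22 motors and regulators, 2 were higher and 3 lower in SEZ_GFPprom than in DIEC_GFP, 1 and 2 in SEZ_GFP, 3 and 0 in SEZ_Prom, and 3 and 2 in SEZ_CD24. The share higher was near that of all genes in SEZ_GFPprom (9.09% against 8.83%) and SEZ_GFP (4.55% against 4.94%). It was 13.6% in both SEZ_Prom and SEZ_CD24, where 2.82% of all genes were higher in SEZ_Prom and 6.03% in SEZ_CD24. The share lower was 13.6% in SEZ_GFPprom, against 6.77% of all genes, and 9.09% in SEZ_GFP, against 6.1%. It was 0% in SEZ_Prom, against 2.33%, and in SEZ_CD24 near that of all genes (9.09% against 8.76%). Cdk5r1, the activator p35 of Cdk5, was higher than in DIEC_GFP in SEZ_GFPprom (1.96, adjusted p = 0.000721), SEZ_GFP (2.92, 0.000278), SEZ_Prom (2.29, 0.00223) and SEZ_CD24 (3.50, 0.0000855). Cdk5r1 and Dclk1 stand in the neuroblast list too. Kif21b was higher in SEZ_CD24 than in DIEC_GFP (2.12, 0.00014), and Kif1b (-1.41, 0.00514) and Fez1 (-1.72, 0.00102) were lower there.

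The 18 growth cone and actin proteins had 2 higher in SEZ_GFPprom, 5 in SEZ_GFP, 1 in SEZ_Prom and 8 in SEZ_CD24 than in DIEC_GFP, with 0 lower in all 4. The share higher was 11.1% in SEZ_GFPprom, against 8.83% of all genes, and 27.8% in SEZ_GFP, against 4.94%. It was 5.56% in SEZ_Prom, against 2.82%, and 44.4% in SEZ_CD24, against 6.03%. Of all genes, 6.77% were lower in SEZ_GFPprom, 6.1% in SEZ_GFP, 2.33% in SEZ_Prom and 8.76% in SEZ_CD24 than in DIEC_GFP. Dbn1, an actin-binding protein of growth cones, was higher in SEZ_GFPprom (1.83, adjusted p = 0.0068), SEZ_GFP (2.42, 0.00556), SEZ_Prom (2.49, 0.00959) and SEZ_CD24 (2.98, 0.00126). Tmsb10, which sequesters actin monomers, was higher in SEZ_GFPprom (2.55, 0.00277), SEZ_GFP (3.20, 0.0028) and SEZ_CD24 (3.17, 0.00204). Marcksl1 was higher in SEZ_GFP (0.86, 0.028) and SEZ_CD24 (1.75, 0.000464), and Basp1 in SEZ_CD24 (1.97, 0.00719). Of 9 intermediate filament genes, 1 was higher in SEZ_GFPprom than in DIEC_GFP, Vim (1.25, 0.0231), where 8.83% of all genes were. Lower than in DIEC_GFP were 1 in SEZ_GFP, 1 in SEZ_Prom and 2 in SEZ_CD24, beside the shares of all genes given above. The 2 in SEZ_CD24 were Synm (-3.05, 0.00108) and Gfap (-3.42, 0.00335), filaments of astrocytes. Synm also read 23 on both SEZ_GFP arrays, against 284, 387, 411 and 386 in DIEC_GFP.

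The genes whose course over the 14 arrays was most like the mean standardised course of the 9, among 9029 genes with a mean of at least 6 on the log2 scale, were Myt1, Nfib, Tiam2, Vax1 and Dclk2 (r = 0.97), then Igfbpl1, Dync1li2, Csnk1e, Elavl4 and Hmgb3 (r = 0.96). Nfib, Igfbpl1 and Elavl4 belong to the neuroblast list. Mean log2 levels of Tiam2 were 7.84 in SEZ_GFPprom, 9.89 in SEZ_GFP, 7.03 in SEZ_Prom and 10.30 in SEZ_CD24, against 6.01 in DIEC_GFP. For single members, Dlx6os1 was the closest to both Dcx and Dpysl3 (r = 0.98), with log2 means of 7.72 in SEZ_GFPprom, 9.08 in SEZ_GFP, 6.62 in SEZ_Prom and 9.87 in SEZ_CD24, against 4.05 in DIEC_GFP. Elavl4 was closest to Tubb3 (0.97), Smarce1 to Stmn2 (0.97), Dclk2 to Dpysl5 (0.97), Tubb5 to Crmp1 (0.96) and Basp1 to Map1b (0.94). Stmn1 and Tubb2b had looser matches, Ss18l1 (0.90) and Cep57 (0.89).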

How the data were processed

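RNA of 14 sorted samples in 5 groups was isolated on columns with DNase treatment and amplified in 2 rounds to biotin-labelled RNA, per the labels' protocols. The deposited intensity values were made by RMA, per the submitters' processing notes, and the version is not given in the sources used here. The authors' table holds linear intensities in whole numbers, so log2 was taken without a pseudocount.

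Of 45101 probe sets, 64 controls were left out. The remaining 45037 were fitted with limma 3.58.1 (R 4.3.3; lmFit, contrasts.fit, eBayes) with a mean per group and without covariates (9 residual and 2.305 prior degrees of freedom). P-values were two-sided and Benjamini-Hochberg adjusted over all probe sets, with a threshold of 0.05. Percentages of all genes rest on the brightest probe set of each of 18193 genes, and gene symbols come from the platform annotation (34945 probe sets with 1 symbol, 932 with several, 9160 with none). Intervals are 95%. Up to 4 genes of each cytoskeletal list with the smallest adjusted F p were named, with the 10 genes most like the members and the 1 gene most like each. The members, lists and tests were chosen with earlier results of these data known. Some list members were not analysed here.

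Alternatives were 3 other normalizations, filters on dim probe sets, a floor of 10, other ways of reading a gene, fits of the compared groups alone, a replicate block, a trend and robust prior, array weights, the 3' to 5' ratio of control transcripts as a covariate, and removal of each array. The fit was tested on simulated data.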

Additional observations from a re-analysis of the deposited data

Results flagged for a closer look

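Within the groups of 4 arrays, 38 Dixon's tests on log2 values were run on the probe sets of the 9 genes. Each asked whether a single array stood apart from its group, and 7 readings did. Most were in dim probe sets, where whole-number readings often tie. The rate of about 1 in 20 that chance would give does not hold there, so 7 of 38 cannot be set against it. Dcx 1418140_at read 153 in SEZ_GFPprom replicate 3, where the next array read 14, and 15 in DIEC_GFP replicate 3, where the next read 11. Dcx 1418141_at read 22 in DIEC_GFP replicate 4, against 12 in the nearest array of that sort, and Dcx 1448974_at read 12 there, against 17. Dpysl5 1441246_s_at read 11 in DIEC_GFP replicate 1, against 10, and Dpysl3 1438789_s_at read 26 in DIEC_GFP replicate 3, against 20. The exception in brightness was Stmn1 1415849_s_at, with 5604 in SEZ_GFPprom replicate 2, where the next array read 5910.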

How the results depend on the processing

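Across 14 other settings and the removal of each of 14 arrays, the calls of single genes and their F tests stood on the same side of the threshold in 2560 instances, were gained in 74 and lost in 129, and 0 reversed. Part of the 2560 was fixed in advance. Of the 3 other normalizations, 1 set equal medians, although every array already had a median log2 of 4.755, so it could hardly change a call. Genes far from the threshold under every setting add to the total too. Counts against DIEC_GFP were 4 to 5 in SEZ_GFPprom, 6 to 8 in SEZ_GFP and 5 to 8 in SEZ_CD24 under the 14 other settings. For SEZ_Prom against DIEC_GFP (1), the count was 2 without the dimmest 25% of probe sets or with each gene's probe sets averaged, 3 without the dimmest 50%, with 1 probe set per gene or with the 3' to 5' ratio as covariate, and 0 with the 2 groups alone or with the replicate block. For SEZ_GFPprom against SEZ_GFP (0), it was 2 with the mean of probe sets, 1 with the groups alone, 5 with array weights and 4 with the ratio as covariate, all lower in SEZ_GFPprom. For SEZ_GFPprom against SEZ_CD24 (7), it was 2 with the groups alone and 2 with the block. For SEZ_GFP against SEZ_Prom (2), it was 4 without the dimmest 50%, 6 with array weights, 1 with a floor of 10, without probe sets of shared sequence, with the block or with the trend and robust prior, and 0 with the groups alone. For SEZ_Prom against SEZ_CD24 (5), it was 1 with the floor, 2 with the block, and 0 with the groups alone or the ratio as covariate. That ratio (log2) averaged 4.94 ± 0.18 in SEZ_GFPprom, 4.73 ± 0.14 in SEZ_GFP, 4.63 ± 0.07 in SEZ_Prom, 5.15 ± 0.29 in SEZ_CD24 and 5.40 ± 0.29 in DIEC_GFP (SD). The cause was not tested, beyond the smaller number of arrays in fits of the groups alone. Removal of single arrays gave counts of 4 to 4 in SEZ_GFPprom, 4 to 8 in SEZ_GFP, 0 to 2 in SEZ_Prom and 5 to 8 in SEZ_CD24, each against DIEC_GFP. It gave 0 to 2 in SEZ_GFPprom against SEZ_GFP, 0 to 8 in SEZ_GFPprom against SEZ_CD24, 0 to 3 in SEZ_GFP against SEZ_Prom, 0 to 6 in SEZ_Prom against SEZ_CD24 and 7 to 8 for the F test. Where this left 1 array in a sort, it was assumed to vary like the others. Whether replicate numbers pair arrays was not settled. Deviations of the 22 same-numbered pairs correlated at -0.14 to 0.11, and those of 54 other pairs at -0.16 to 0.16. In a sort of 2 arrays the deviations mirror each other, so these correlations are not independent and cannot decide the matter. Probe sets near an intensity of 10 limit what can be read from the dimmest members.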
